A study of Mus musculus with 16 samples.

Results

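The genes described are those of the transforming growth factor beta (TGF-β) ligands (Tgfb1, Tgfb2 and Tgfb3), their signalling receptors (Tgfbr1 and Tgfbr2) and 2 feedback inhibitors of the pathway (Smad7 and Skil). They were taken by symbol, as the rows of these names, and make up 7 of the 16094 genes in the table of normalised counts. All 7 passed the filter on low values (a mean of at least 5 normalised reads per tumour), which kept 14672 genes. RNA was measured in 16 melanoma tumours of mice, grown from B16R2L cells, in 4 groups of 4. The cell line was made to express either a control hairpin with no target (shCtrl) or 1 hairpin aimed at Mdk (shMdk). Midkine, its product, is a growth factor that cells secrete. From a tumour volume of 100 mm3, treatment ran for 2 weeks at 2 doses a week, with the anti-PD1 antibody RMP1-14 or with IgG2a as its control. PD1 is an inhibitory receptor of T cells. The labels give an anti-PD1 dose of 10 mg/kg, where the design text of the series has grams, and no dose for IgG2a. The 4 groups are thus shCtrl IgG2a, shCtrl anti-PD1, shMdk IgG2a and shMdk anti-PD1. Each line carried 1 hairpin, so a difference between the lines cannot be told apart from the loss of Mdk. The labels call the tumours xenografts and give neither the strain, the age nor the sex of the mice. They do not say which tumours were handled together, and tumour numbers only name a tumour. Pigment cell genes, which define a melanoma, were high in every tumour, with a summed level of 107394 to 187437 normalised reads over 7 genes.

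TGF-β is secreted bound to a latency peptide and acts only after its release, in which integrins and proteases take part. The free ligand binds the type II receptor (Tgfbr2), which recruits and phosphorylates the type I receptor (Tgfbr1). The type I receptor then phosphorylates Smad2 and Smad3, which enter the nucleus with Smad4. Smad7 blocks the type I receptor and brings ubiquitin ligases to it, while the Skil product (SnoN) binds Smad complexes on DNA and represses their targets. Both feedback genes are themselves switched on by the pathway in many cell types. In tumours TGF-β is known for restraining T cells and for inducing fibroblasts to make extracellular matrix.

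The libraries held 5686405 to 8886334 reads, and 15508 to 16014 genes had at least 1 read. The hairpin was checked first on its target. Mdk did not overlap between the lines under either antibody and was lower in shMdk, with log2 fold changes of -2.16 ± 0.36 under IgG2a (SE, limma adjusted p = 0.00428) and -2.17 ± 0.36 under anti-PD1 (adjusted p = 0.00166). Measures of library composition set 7 tumours apart. Gm42418, a gene model over ribosomal RNA sequence, reached 4.47% (shCtrl anti-PD1 tumour 2) and 3.17% (shMdk IgG2a tumour 1) of the reads, against 0.880% to 1.56% elsewhere. In 5 others (shCtrl IgG2a tumours 1 and 2, shMdk IgG2a tumours 3 and 4, shMdk anti-PD1 tumour 1) genes with a GC-rich 3′ end read higher, with slopes of 0.09 to 0.18 log2 units per 10% GC, against -0.11 to -0.0041 in the rest.

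Values are read counts divided by the authors' size factors, written as normalised reads. Reads come from the 3′ ends of transcripts. Levels are tested here between tumours and not between genes. Where a gene is called low or high, this describes its number of reads only. Log2 fold changes come from limma on log2(normalised count + 1), with standard errors. Adjusted p is Benjamini-Hochberg over all 14672 genes in a comparison, and a gene is said to rise or fall where it was under 0.05. In bulk tumour RNA, fewer cells of a type and less RNA per cell cannot be told apart.

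In brief, the 3 ligand genes and the 2 receptor genes passed in none of the 7 comparisons made, while Skil and Smad7 rose in shMdk tumours under anti-PD1 and on average over both antibodies. Of the 7 genes, 2 were called under anti-PD1, where 5.93% of all genes tested were called (4.93% as higher). On average over both antibodies 2 of 7 were called, against 8.4% of all genes (6.23% as higher). Under IgG2a 0 of 7 were called, against 1.74% of all genes. For anti-PD1 against IgG2a, 0 of 7 were called in shCtrl (0% of all genes), 0 of 7 in shMdk (0.0341%) and 0 of 7 on average over both hairpins (0.0477%). The difference between the antibody's effects in the 2 lines was called for 0 of 7 (0% of all genes). The 0 genes called in shCtrl and for the difference compare with 556 and 506 at an unadjusted p under 0.05, and with 7 genes called by DESeq2 in shCtrl. Those at an unadjusted p under 0.05 were 3.79% and 3.45% of the genes tested, and 1 and 0 of the 7. The median log2 fold change of the 7 genes was 0.35 under IgG2a and -0.03 under anti-PD1, and that of all genes tested was -0.01 and -0.02.

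**Figure D1:**
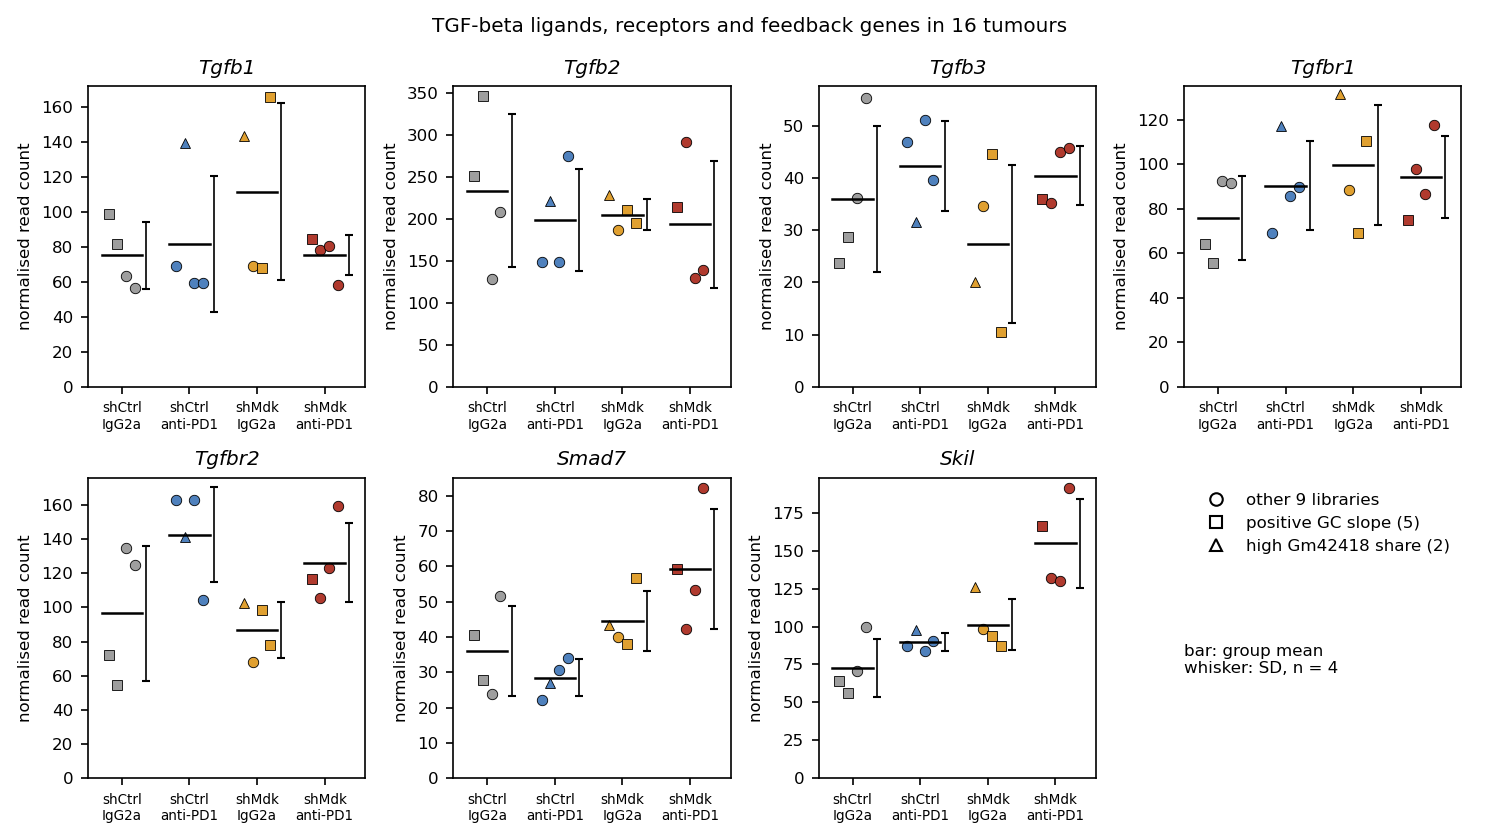
Normalised read count (vertical axes, each from 0) of the 7 genes in each of the 16 tumours by group. Points are tumours, bars are group means and whiskers are SD (n = 4), and point shapes mark the 5 libraries with a positive GC slope and the 2 with a high Gm42418 share. For Skil, the 4 shMdk anti-PD1 tumours (129.7 to 191) lie above the other 12, whereas the ligand and receptor genes overlap between shMdk and shCtrl tumours under each antibody.

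Skil (ENSMUSG00000027660.16, chromosome 3, 31095058 to 31122577, plus strand, GRCm38) encodes SnoN, a repressor of Smad target genes. Skil read 64.2, 56.5, 70.4 and 99.7 in the shCtrl tumours given IgG2a (tumours 1 to 4), with 87.4, 97.6, 83.7 and 90.8 in those given anti-PD1. Skil in the shMdk line read 126, 98.2, 93.9 and 87.3 with IgG2a, then 166, 132, 129.7 and 191 with anti-PD1. The shMdk anti-PD1 tumours thus lay above every other tumour, with tumours 4 and 1 highest, while the other 3 groups overlapped. Group means were 72.7 ± 18.9, 89.8 ± 5.91, 101 ± 16.9 and 155 ± 29.5 in the same order (SD, n = 4).

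Under anti-PD1, Skil was 1.70-fold higher in shMdk than in shCtrl tumours (95% confidence interval 1.27 to 2.27; log2 fold change 0.76 ± 0.20, limma adjusted p = 0.0305). The groups did not overlap (as for 8.23% of all genes in this direction), and an exact permutation test gave p = 0.0286, the smallest that 70 arrangements allow (two-sided). Averaged over both antibodies the rise was 0.63 ± 0.14 on the log2 scale (limma adjusted p = 0.00855; exact permutation within antibody, p = 0.00163 over 4900 arrangements). Under IgG2a the difference was 0.49 ± 0.20 and did not pass (limma adjusted p = 0.377; exact permutation p = 0.114). The anti-PD1 call was lost without shCtrl anti-PD1 tumour 1, 3 or 4 (adjusted p = 0.0733, 0.0801 and 0.0701) or shMdk anti-PD1 tumour 1 or 4 (0.102 and 0.104), at log2 fold changes of 0.65 to 0.84 over all 16 such fits. Without the 5 libraries with a positive GC slope the values were 0.72 under anti-PD1 (adjusted p = 0.0647) and 0.56 on average (0.0736).

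Skil also read higher under anti-PD1 than under IgG2a in shMdk tumours, by 0.60 ± 0.20 on the log2 scale, with groups that did not overlap (exact permutation p = 0.0286, the smallest possible). The groups of 4.42% of all genes did not overlap in this direction. The adjusted p was 0.259 in limma, so the gene is not counted as changed, and this comparison shares the shMdk anti-PD1 tumours with the hairpin comparison. In shCtrl tumours the difference was 0.33 ± 0.20 (adjusted p = 0.798). The difference between these antibody effects was 0.27 ± 0.28, with a 95% interval from -0.33 to 0.87. Averaged over both hairpins the antibody difference was 0.47 ± 0.14, with an adjusted p of 0.227 in limma (exact permutation p = 0.00449).

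Smad7 (ENSMUSG00000025880.11, chromosome 18, 75367529 to 75395935, plus strand, GRCm38) encodes the inhibitory Smad that blocks the type I receptor. It was a low gene here, with 18 to 97 reads per tumour. Smad7 read 40.5, 27.7, 23.8 and 51.7 in the shCtrl tumours given IgG2a, with 22.1, 27.0, 30.7 and 34.1 in those given anti-PD1. Smad7 in the shMdk line read 43.4, 40.0, 37.9 and 56.8 with IgG2a, then 59.3, 42.1, 53.4 and 82.1 with anti-PD1. Under anti-PD1 every shMdk tumour lay above every shCtrl tumour (as for 8.23% of all genes), while under IgG2a the groups overlapped. As for Skil, shMdk anti-PD1 tumours 4 and 1 were the highest of all 16. Group means were 35.9 ± 12.7, 28.5 ± 5.17, 44.5 ± 8.47 and 59.2 ± 16.8 (SD, n = 4).

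Under anti-PD1, Smad7 was 2.01-fold higher in shMdk tumours (95% confidence interval 1.33 to 3.03; log2 fold change 1.01 ± 0.28, limma adjusted p = 0.0403; exact permutation p = 0.0286, the smallest possible). Averaged over both antibodies it rose by 0.68 ± 0.20 on the log2 scale (limma adjusted p = 0.0415; exact permutation p = 0.00571). Under IgG2a the difference was 0.35 ± 0.28 (adjusted p = 0.820). Anti-PD1 against IgG2a gave -0.28 ± 0.28 in shCtrl (adjusted p = 0.814) and 0.38 ± 0.28 in the shMdk line (adjusted p = 0.563), and the difference of these was 0.66 ± 0.40 (95% interval -0.18 to 1.49).

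Both calls for Smad7 were close to the threshold. The anti-PD1 call was lost in 9 of the 16 fits that left out a tumour, with log2 fold changes of 0.84 to 1.15. These were the fits without shCtrl anti-PD1 tumour 1, 2, 3 or 4 (Smad7 adjusted p = 0.118, 0.0678, 0.0697 and 0.0574), shMdk IgG2a tumour 2 or 3 (0.0514 and 0.0521) and shMdk anti-PD1 tumour 1, 3 or 4 (0.111, 0.0636 and 0.139). It was also lost with only the 2 groups compared in the fit (0.0578), without the 2 libraries high in Gm42418 (0.0719) and without the 5 whose GC slope was positive (0.114). The average over both antibodies lost its call in 12 of 16 such fits, all but those without shCtrl IgG2a tumours 1 and 4, shCtrl anti-PD1 tumour 4 and shMdk anti-PD1 tumour 2. Its adjusted p lay between 0.0218 and 0.0925 over the 16 fits. Without the 2 libraries it was 0.0702 and without the 5 it was 0.228.

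**Figure D2:**
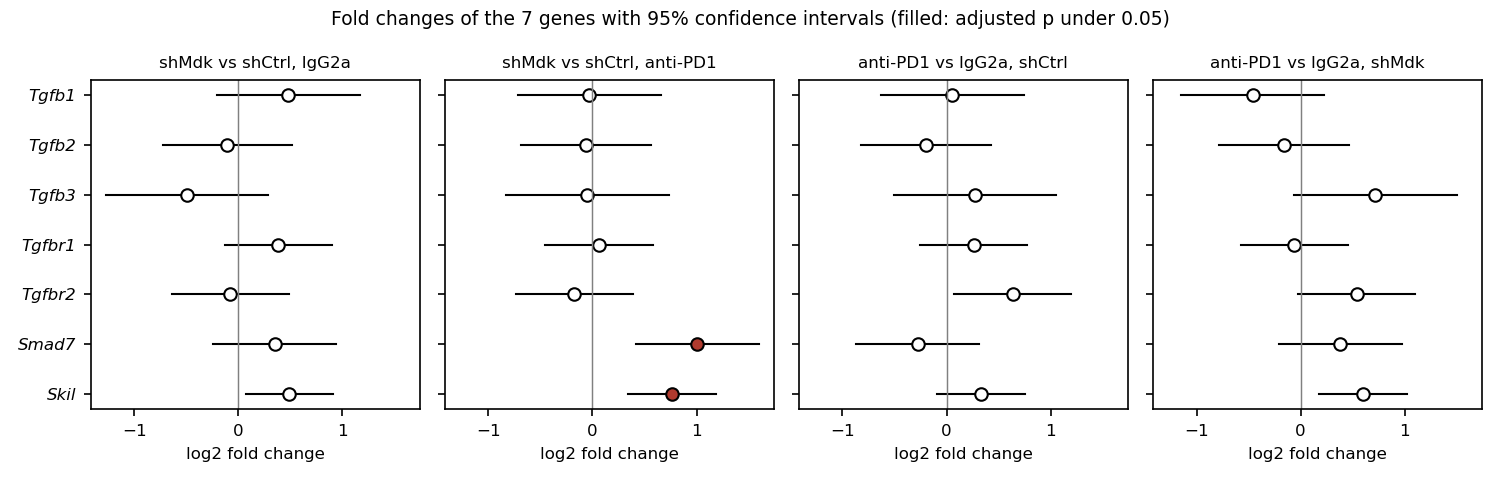
Log2 fold change (horizontal axis) of the 7 genes in 4 comparisons, with 95% confidence intervals as lines; filled points have a limma adjusted p under 0.05. Skil (0.76) and Smad7 (1.01) in shMdk against shCtrl tumours under anti-PD1 are the only filled points.

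Tgfb1 (ENSMUSG00000002603.15, chromosome 7, 25687002 to 25705077, plus strand, GRCm38) encodes the main TGF-β of immune cells and platelets. Tgfb1 read 99.1, 82.1, 63.7 and 56.3 in the shCtrl tumours given IgG2a, with 69.0, 139.6, 59.5 and 59.3 in those given anti-PD1. Tgfb1 in the shMdk line read 144, 69.1, 68.3 and 166 with IgG2a, then 84.5, 78.3, 80.5 and 58.4 with anti-PD1. The groups overlapped throughout. The 3 highest tumours were shMdk IgG2a tumours 4 and 1 and shCtrl anti-PD1 tumour 2. In shMdk against shCtrl tumours the log2 fold change was 0.48 under IgG2a (95% confidence interval -0.20 to 1.17) and -0.03 under anti-PD1 (-0.72 to 0.65). These intervals do not leave out a change of 1.5-fold under either antibody.

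The spread of Tgfb1 moved with the composition of the libraries. Its 3′ end (the last 400 bases of its longest annotated protein-coding transcript) had a GC content of 65%. This was higher than in 99.8% of the genes tested that had a GC value. Tgfb1 read 68.3 to 166 in the 5 libraries with a positive GC slope and 139.6 and 144 in the 2 high in Gm42418, against 56.3 to 80.5 in the other 9. Within these 9 its group means were 60.0 in 2 shCtrl IgG2a, 62.6 in 3 shCtrl anti-PD1 and 72.4 in 3 shMdk anti-PD1 tumours, with 69.1 in the only shMdk IgG2a tumour left. The 2 genes called lay at the other end, with 3′ ends of 25.25% GC for Smad7 and 31.25% for Skil. These were higher than in 0.39% and 6.58% of the genes tested that had a GC value. Their 2 highest tumours, shMdk anti-PD1 tumours 4 and 1, had GC slopes of -0.095 and 0.098. The part of library composition in the levels of Tgfb1, Smad7 and Skil was not tested.

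Tgfb3 (ENSMUSG00000021253.7, chromosome 12, 86056745 to 86079041, minus strand, GRCm38) encodes a ligand with roles in development and wound repair. It had 10 to 60 reads per tumour, the fewest of the 7 genes. Tgfb3 read 23.6, 28.8, 36.1 and 55.4 in the shCtrl tumours given IgG2a, with 46.9, 31.5, 51.1 and 39.5 in those given anti-PD1. Tgfb3 in the shMdk line read 20.03, 34.6, 44.6 and 10.5 with IgG2a, then 35.9, 35.3, 44.9 and 45.7 with anti-PD1. The lowest values were those of shMdk IgG2a tumours 4 and 1, which were the highest for Tgfb1. Tgfb3 ran against Tgfb1 across tumours within groups (Pearson r = -0.85 over 16 tumours after group means were subtracted, which share libraries, so no p is given). It read 10.5 to 44.6 in the 5 libraries with a positive GC slope and 20.03 and 31.5 in the 2 high in Gm42418, against 34.6 to 55.4 in the other 9. Anti-PD1 against IgG2a gave 0.72 ± 0.37 on the log2 scale in shMdk tumours (adjusted p = 0.429). In shCtrl tumours it gave 0.28 ± 0.37, which turned to -0.10 without the 5 libraries.

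**Figure D3:**
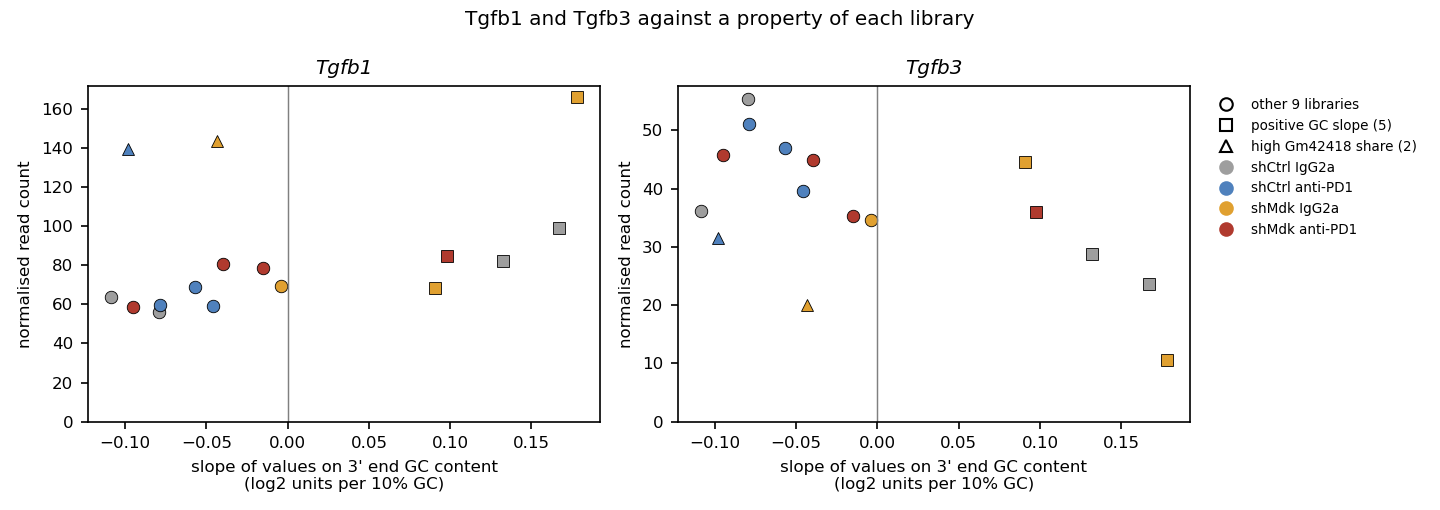
Normalised read count of Tgfb1 and Tgfb3 (vertical axes) in each tumour against the slope of that library's values on the GC content of 3′ ends (horizontal axis, log2 units per 10% GC). Colours are the 4 groups and shapes the library properties; Tgfb1 reached 166 and Tgfb3 10.5 in the library with the steepest slope (0.18), and the 2 libraries high in Gm42418 (triangles) also had Tgfb1 above the other 9.

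Tgfb2 (ENSMUSG00000039239.14, chromosome 1, 186622792 to 186705989, minus strand, GRCm38) encodes a ligand that needs a co-receptor for high-affinity binding to the type II receptor. Tgfb2 read 251, 346, 128 and 208 in the shCtrl tumours given IgG2a, with 149, 221, 149 and 274 in those given anti-PD1. Tgfb2 in the shMdk line read 228, 186, 210.5 and 194 with IgG2a, then 214, 291, 129.7 and 139 with anti-PD1. All 4 groups overlapped, with means of 193 to 233. In shMdk against shCtrl tumours the log2 fold change was -0.10 ± 0.30 under IgG2a and -0.06 ± 0.30 under anti-PD1, with 95% intervals of -0.73 to 0.52 and -0.69 to 0.56. Tgfb2 was most even in shMdk IgG2a tumours, where its SD was 18.4, against 60.9 to 90.8 in the other groups.

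Tgfbr1 (ENSMUSG00000007613.15, chromosome 4, 47353222 to 47414931, plus strand, GRCm38) encodes the type I receptor kinase that phosphorylates Smad2 and Smad3. Tgfbr1 read 64.2, 55.4, 92.2 and 91.4 in the shCtrl tumours given IgG2a, with 69.0, 117, 85.5 and 89.9 in those given anti-PD1. Tgfbr1 in the shMdk line read 131, 88.2, 69.2 and 110.4 with IgG2a, then 74.8, 97.9, 86.4 and 118 with anti-PD1. The groups overlapped in every comparison, and the 2 libraries high in Gm42418 were at 117 and 131. The log2 fold changes between lines were 0.39 ± 0.24 under IgG2a and 0.06 ± 0.24 under anti-PD1 (adjusted p = 0.725 and 0.937).

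Tgfbr2 (ENSMUSG00000032440.13, chromosome 9, 116084293 to 116175360, minus strand, GRCm38) encodes the type II receptor that binds the ligand first. Tgfbr2 read 72.0, 54.3, 135 and 125 in the shCtrl tumours given IgG2a, with 163, 141, 163 and 104 in those given anti-PD1. Tgfbr2 in the shMdk line read 102, 68.2, 98.6 and 77.8 with IgG2a, then 117, 106, 123 and 159 with anti-PD1. In shMdk tumours all 4 values under anti-PD1 lay above all 4 under IgG2a (exact permutation p = 0.0286, the smallest possible), and in shCtrl tumours they overlapped. Of all genes, 4.42% had shMdk groups that did not overlap in this direction. The log2 fold change of anti-PD1 against IgG2a was 0.63 ± 0.27 in shCtrl (limma adjusted p = 0.798) and 0.54 ± 0.27 in the shMdk line (0.416). Averaged over both hairpins it was 0.59 ± 0.19, with a limma adjusted p of 0.237 and an exact permutation p of 0.00776. Tgfbr2 therefore did not pass over all genes. Its log2 fold change between the lines was -0.07 ± 0.27 under IgG2a and -0.17 ± 0.27 under anti-PD1. The lowest 2 tumours in shCtrl IgG2a were those with a positive GC slope, and Tgfbr2 ran against Tgfb2 within groups (r = -0.73 over 16 tumours, given without a p).

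For the ligand and receptor genes, groups that were neighbours in the order of means differed by less than the larger of their SDs. For Tgfb1 the order was shCtrl IgG2a (75.3 ± 19.2), shMdk anti-PD1 (75.4 ± 11.6), shCtrl anti-PD1 (81.8 ± 38.8) and shMdk IgG2a (112 ± 50.6). For Tgfb3 it was shMdk IgG2a (27.4 ± 15.1), shCtrl IgG2a (35.98 ± 13.9), shMdk anti-PD1 (40.5 ± 5.62) and shCtrl anti-PD1 (42.3 ± 8.62). For Tgfbr1 it was shCtrl IgG2a (75.8 ± 18.8), shCtrl anti-PD1 (90.4 ± 19.96), shMdk anti-PD1 (94.2 ± 18.3) and shMdk IgG2a (99.8 ± 26.9). For Tgfbr2 both IgG2a groups stood below both anti-PD1 groups, at 86.7 ± 16.4 and 96.5 ± 39.4 against 126 ± 23.1 and 143 ± 27.6. Of the 7 genes only Skil and Smad7 had shMdk anti-PD1 as the highest group by mean. Its step above the next group exceeded both SDs for Skil (155 ± 29.5 after 101 ± 16.9) but not for Smad7 (59.2 ± 16.8 after 44.5 ± 8.47).

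The genes whose values followed each of these most closely were found by correlation over the 16 tumours after group means were subtracted. Skil was followed by Pdgfrb (r = 0.92), Dock5 (0.84) and Rgl1 (0.83). Pdgfrb, a receptor kinase of fibroblasts and pericytes, read 126 and 75.8 in shMdk anti-PD1 tumours 4 and 1, the highest for Skil, and 18.1 to 44.1 in the other 14. Smad7 was followed by Mmp10 (0.82), Chst7 (0.81) and the immediate early gene Egr1 (0.81), and its r with Skil was 0.53. Tgfbr1 was followed by Rfx2 (0.90), Abca1 (0.89) and Cd9 (0.88), and Tgfbr2 by Plat (0.92), Snap29 (0.88) and Mettl21a (0.87). Tgfb1 was followed by Slc43a1 (0.95), Ncapd3 (0.93) and Cspp1 (0.92), Tgfb2 by Adssl1 (0.88), Tnfrsf18 (0.87) and Sfxn5 (0.87), and Tgfb3 by Chkb (0.92), Nsmce3 (0.92) and Pofut2 (0.90). Gene models with Gm or Rik symbols were left out of the 14672 genes before ranking. The genes named were the highest of those left for each member and the tumours share their library properties, so they describe likeness only.

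The machinery that frees latent TGF-β was examined next, in 14 tested genes for latency and activation. Under anti-PD1, 3 of 14 rose and 0 fell in shMdk tumours, beside 5.93% of all genes called. Under IgG2a 0 of 14 passed, beside 1.74%. Itgb5, the beta chain of an integrin that can release latent TGF-β, read 20.2, 13.5, 28.8 and 15.3 in shCtrl anti-PD1 tumours and 126, 67.6, 58.5 and 71.1 in shMdk anti-PD1 tumours, with no overlap (as for 8.23% of all genes in this direction). Its log2 fold change was 1.99 ± 0.29 (adjusted p = 9.47e-04), and no single tumour left out ended this call. Under IgG2a, Itgb5 read 19.97 to 32.0 in shCtrl and 33.7 to 51.5 in shMdk tumours (0.79 ± 0.29, adjusted p = 0.297), and on average over both antibodies it rose by 1.39 ± 0.21 (adjusted p = 2.71e-04). Fbn1, the fibrillin to which latent complexes bind in the matrix, rose by 2.58 ± 0.66 (adjusted p = 0.0250) and Itgb3, another activating integrin chain, by 1.15 ± 0.31 (adjusted p = 0.0346). The count was 1 of 14 without shMdk anti-PD1 tumour 1 or 4, or without shCtrl anti-PD1 tumour 1. On average over both antibodies Itgb5, Fbn1 and the processing protease Furin rose (Furin by 0.54 ± 0.15, adjusted p = 0.0280), beside 8.4% of all genes called. That count was 1 without shCtrl IgG2a tumour 3 or 4, shCtrl anti-PD1 tumour 1, shMdk IgG2a tumour 4 or shMdk anti-PD1 tumour 1, and 5 without shCtrl IgG2a tumour 1 or shMdk IgG2a tumour 2. Lrrc32 and Nrros, which tether latent TGF-β to the surface of regulatory T cells and macrophages, had log2 fold changes of 0.80 ± 0.42 and 0.39 ± 0.21 under anti-PD1 (adjusted p = 0.349 and 0.357). Ltbp1, Itgb6, Itgb8 and Fbn2 were not analysed here, since the table used has no row for them.

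Of 7 genes for co-receptors and decoys, 0 passed in the hairpin comparisons. Under anti-PD1 this 0 became 1 without shCtrl IgG2a tumour 1 or shCtrl anti-PD1 tumour 3 and 2 without shMdk anti-PD1 tumour 3, and it was 1 in edgeR and 2 in DESeq2. On average over both antibodies it became 1 without shCtrl IgG2a tumour 1 and 2 without shMdk anti-PD1 tumour 3. Under anti-PD1 the nearest were Dcn and Bgn, matrix proteoglycans that bind TGF-β, at 2.92 ± 0.90 and 1.77 ± 0.56 on the log2 scale (adjusted p = 0.0704 and 0.0756). Under anti-PD1, 1 of 19 Smads and regulators of Smads passed, and it fell. That count was near the share of all genes called in the comparison (5.93%). Smad5, a Smad of the bone morphogenetic protein branch, was at 1937, 2207, 2068 and 1918 in shCtrl anti-PD1 and at 1597, 1585, 1468 and 1346 in shMdk anti-PD1 tumours (-0.44 ± 0.12, adjusted p = 0.0450). That call was lost in 11 of the 16 fits that left out a tumour (adjusted p 0.0285 to 0.135 over the 16). Under IgG2a 0 of 19 passed, with Smad2 at 0.46 ± 0.17 and Smad4 at 0.36 ± 0.14 nearest (adjusted p = 0.314 and 0.362), and on average over both antibodies 0 of 19 passed. That 0 became 1 without shCtrl IgG2a tumour 1, shMdk IgG2a tumour 1 or shMdk anti-PD1 tumour 2 or 3, and was 4 in DESeq2.

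In the activin and BMP branches of the family, 1 of 6 tested ligand genes rose under anti-PD1, where 5.93% of all genes were called. Inhba, which encodes the activin A subunit, read 6.44, 12.01, 19.5 and 9.89 in shCtrl anti-PD1 tumours and 264, 36.2, 39.0 and 190.4 in shMdk anti-PD1 tumours. The groups did not overlap (as for 8.23% of all genes in this direction), and tumours 1 and 4 were again the highest. Its log2 fold change was 2.94 ± 0.72 (adjusted p = 0.0203), against 0.80 ± 0.72 under IgG2a (adjusted p = 0.858) and 1.87 ± 0.51 on average over both antibodies (adjusted p = 0.0278). The call was lost without shCtrl anti-PD1 tumour 1 or 4, or shMdk anti-PD1 tumour 1 or 4, where the adjusted p reached 0.0932. The call on average was lost when any 1 of these 4 tumours was left out, and likewise without shCtrl IgG2a tumour 3 or 4 or shMdk IgG2a tumour 4. Of 8 receptor and antagonist genes 1 rose, the secreted Fstl1 (1.32 ± 0.33, adjusted p = 0.0214), whose call was lost without shCtrl anti-PD1 tumour 1 or 4 or shMdk anti-PD1 tumour 1. Of 3 tested Id genes, targets of BMP signalling, 0 passed, with Id3 at 0.92 ± 0.46 (adjusted p = 0.314). Under IgG2a 0 of the 6, 0 of the 8 and 0 of the 3 passed.

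Genes known to be induced by TGF-β were followed in 27 tested genes. Under anti-PD1, 10 rose and 0 fell in shMdk tumours, beside 5.93% of all genes called, with a median log2 fold change of 1.11 over the 27, against -0.02 over all genes tested. Under IgG2a 1 of 27 rose, beside 1.74% of all genes called, with a median of 0.0025. The 10 were Tgfbi, Lox, Fn1, Tnc, Vcan, Timp1, Postn, Col1a1, Col3a1 and Col1a2, most of which encode proteins of the extracellular matrix or enzymes and inhibitors acting on it. The 17 that did not pass included Ctgf and Cyr61 (-0.15 ± 0.93 and 0.88 ± 0.62), the smooth muscle genes Acta2 and Tagln (0.80 ± 0.36 and 1.35 ± 0.79) and the early transcription factor genes Junb and Klf10 (0.67 ± 0.32 and -0.08 ± 0.41).

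**Figure D4:**
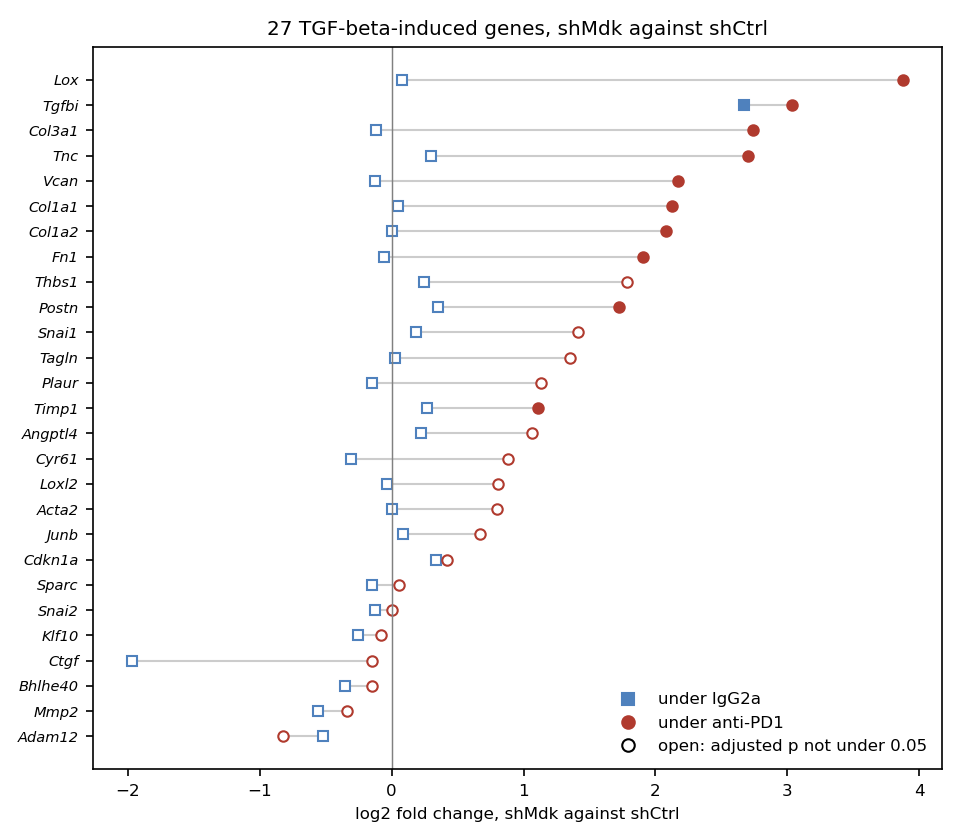
Log2 fold change of shMdk against shCtrl tumours (horizontal axis) for 27 genes induced by TGF-β, under IgG2a (squares) and under anti-PD1 (circles); filled points have a limma adjusted p under 0.05. Under anti-PD1 10 points are filled, and under IgG2a only Tgfbi (2.67) is.

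Fn1, the gene of the matrix protein fibronectin, read 109, 167, 244 and 227 in shCtrl tumours given anti-PD1 but 1479.6, 343, 427 and 937 in the shMdk line. The groups did not overlap (as for 8.23% of all genes in this direction), and shMdk tumours 2 and 3 stood closer to the shCtrl tumours than tumours 1 and 4 did. The log2 fold change was 1.91 ± 0.37 (adjusted p = 0.00495). Lox, an enzyme that crosslinks collagen, read 5.52, 1.5, 27.0 and 11.7 under anti-PD1 in the shCtrl line but 472, 93.0, 32.2 and 184 in the shMdk line (3.88 ± 0.76, adjusted p = 0.00468). Tnc, tenascin C, rose by 2.70 ± 0.55 (adjusted p = 0.00633), Vcan, versican, by 2.17 ± 0.48 (adjusted p = 0.0112) and Timp1, an inhibitor of matrix metalloproteases, by 1.11 ± 0.26 (adjusted p = 0.0147). In each of these 5 genes shMdk anti-PD1 tumours 1 and 4 were the highest of the 16.

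Tgfbi, a TGF-β-induced adhesion protein of the matrix, differed from them under IgG2a. With IgG2a it read 29.3, 57.5, 9.51 and 11.999 in the shCtrl line but 230.3, 88.2, 137 and 139 in the shMdk line. With anti-PD1 these were 26.7, 19.5, 49.3 and 53.0 for shCtrl, but 391, 337, 173 and 304 for shMdk. All 8 shMdk tumours lay above all 8 shCtrl tumours. Under anti-PD1 alone, 8.23% of all genes had groups that did not overlap in this direction. The share of all genes that separate all 8 from all 8 is not given here, so that separation is not read as unusual. The log2 fold change was 2.67 ± 0.48 under IgG2a (adjusted p = 0.00614) and 3.04 ± 0.48 under anti-PD1 (adjusted p = 0.00120), and no single tumour left out ended either call.

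The count of 10 rested on a few tumours. It was 4 without shMdk anti-PD1 tumour 1, 6 without shMdk anti-PD1 tumour 4 and 5 without shCtrl anti-PD1 tumour 4. It was 4 without the 5 libraries with a positive GC slope, to which shMdk anti-PD1 tumour 1 belongs, and 6 with only the 2 groups in the fit. On average over both antibodies 6 rose and 1 fell, beside 8.4% of all genes called. The gene that fell was Adam12, a metalloprotease (-0.67 ± 0.18, adjusted p = 0.0247). Together these 7 became 3 without shCtrl IgG2a tumour 2, shCtrl anti-PD1 tumour 1 or shMdk anti-PD1 tumour 1 or 4, and 4 without shCtrl IgG2a tumour 3, shCtrl anti-PD1 tumour 4 or shMdk IgG2a tumour 1 or 4. They became 3 without the 2 libraries high in Gm42418 and 1 without the 5 libraries whose GC slope was positive. Anti-PD1 against IgG2a in shMdk tumours had a median of 1.04 over the 27, with 24 positive and 0 passing, and in shCtrl tumours the median was -0.27. The difference between these effects had a median of 1.19, and 0 of 27 passed it.

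**Figure D5:**
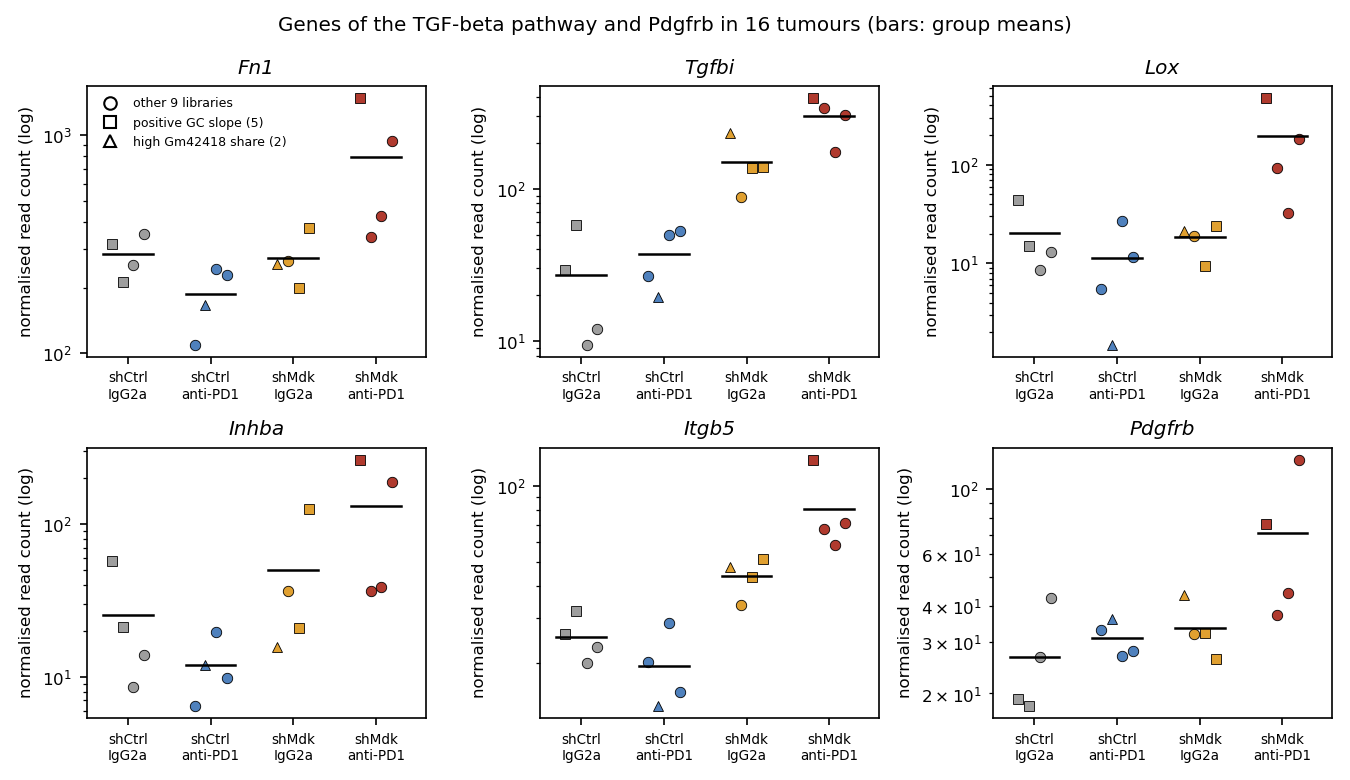
Normalised read count on log axes (vertical) of 5 genes of the TGF-β pathway and of Pdgfrb in the 16 tumours by group; bars are group means. In Fn1, Lox, Inhba, Itgb5 and Pdgfrb shMdk anti-PD1 tumours 1 and 4 are the highest 2. Tgfbi and Itgb5 are higher in shMdk than in shCtrl tumours under both antibodies.

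Markers of other cell types were set beside these genes. The summed level of 7 fibroblast genes was 13432, 3665, 1547 and 6273 normalised reads in shMdk anti-PD1 tumours 1 to 4, against 467 to 2470 in the other 12, a range that holds tumour 3. The fibroblast and TGF-β-induced lists share Col1a1, Col1a2 and Col3a1, so the 2 lists are not separate readings. In shMdk anti-PD1 tumours 1 and 4 Col1a1 read 6675 and 2929, Col1a2 1806 and 1803, and Col3a1 3796 and 951. These 3 genes made up most of the fibroblast sum in those 2 tumours. Under anti-PD1 3 of the 7 fibroblast genes rose, these 3, beside 5.93% of all genes called. Of the 7, 0 rose without shMdk anti-PD1 tumour 1 or 4 or without shCtrl anti-PD1 tumour 1, 2 or 4. The count was 1 without shMdk anti-PD1 tumour 2, 5 without shMdk anti-PD1 tumour 3, and 0 with only the 2 groups in the fit, without the 2 libraries high in Gm42418 or without the 5 whose GC slope was positive. None of the 7 was at 0 in any tumour, and Pdgfra, Lum and Dpt had no row in the table used. Skil, Smad7, Inhba, Itgb5, Fn1, Lox, Tnc, Vcan and Timp1 were highest in the same 2 tumours as the fibroblast sum, while Tgfbi was highest in shMdk anti-PD1 tumours 1 and 2. The part of fibroblasts in these results was not tested.

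Immune markers were higher in the shMdk line under both antibodies. The summed level of 13 macrophage and monocyte genes was 389 to 1477 in the 8 shCtrl and 1451 to 6929 in the 8 shMdk tumours. It was highest in shMdk anti-PD1 tumours 2 and 1 (6929 and 6315), the 2 tumours that were also highest for Tgfbi. Of the 13, 5 rose under IgG2a, 11 under anti-PD1 and 13 on average. The shares of all genes called in these comparisons were 1.74%, 5.93% and 8.4%. Cd68 rose by 1.68 ± 0.31 and 1.91 ± 0.31 under the 2 antibodies (adjusted p = 0.00685 and 0.00145). The IgG2a count went from 2 (without shMdk IgG2a tumour 3) to 9 (without shCtrl anti-PD1 tumour 2), and the anti-PD1 count was 7 without shMdk anti-PD1 tumour 1. Without the 5 libraries whose GC slope was positive these counts were 0 and 7. The sums of 6 T and NK cell genes were 26.6 to 87.1 in shCtrl and 98.2 to 367 in shMdk tumours, and 1, 4 and 5 of the 6 rose under IgG2a, under anti-PD1 and on average. In shCtrl anti-PD1 tumours 5 of the 6 were at 0 in some tumour. Of 3 tested genes of platelets, cells rich in TGF-β1 protein, 1 rose under anti-PD1, beside 5.93% of all genes called. It was Pf4 (2.22 ± 0.33, adjusted p = 9.65e-04), while Ppbp and Itga2b did not pass, so the list does not show a rise of platelet genes in general. Gp9 and Treml1 were at 0 in some tumours of 3 groups. Beside these differences Tgfb1 itself passed in no comparison. The part of immune cells in the levels of Skil, Smad7 and Tgfbi was not tested.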

How the data were processed

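A stranded kit that reads transcript 3′ ends was used on 500 ng of RNA per tumour (integrity numbers 5.8 to 9.2), per the labels' protocols. Named in the submitters' processing notes are TopHat2 2.0.10 and Bowtie 1.0.0, HTSeq, DESeq2, the genome build GRCm38, SAMtools 0.1.19 and FastQC 0.11.0, with no role or order given. The deposited table holds a normalised signal, read counts that the authors divided by size factors. Whole reads were recovered from it: 100% of values were whole within 0.001, and the size factors computed again from these reads matched to within 1e-04 for all 16 tumours.

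The main test was limma 3.58.1 (R 4.3.3, variance trend) on log2(value + 1), with 16 tumours and 12 residual degrees of freedom, over 14672 genes with a mean of at least 5. This scale understates the change of low genes. The limma fit was also run on simulated counts with a fixed dispersion. These held no changes in low genes and no differences in library composition, so the run does not speak to either. Alternatives were other pseudocounts and filters, only the groups compared, no trend, edgeR 4.0.16 and DESeq2 1.42.0 on recovered reads, and leaving out each tumour. Added after seeing the data were fits without 2 or 5 libraries and with the GC slope as a covariate. Coordinates and 3′ ends were read from GENCODE M21, and counting was strand-specific, so genes on the opposite strand of Tgfb2 and Tgfb3 were counted apart.

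1 gene of the induced list is not reported here. The members and the gene lists were chosen with earlier results of these data known. Named were all 7 members, up to 6 passing genes per pathway list by adjusted p (or the nearest 2), up to 3 per cell type list and the 3 genes most like each member. Other genes were named after their values were seen: the rest of the 10 induced genes called, Ctgf, Cyr61, Acta2, Tagln, Junb, Klf10, Lrrc32 and Nrros. Permutation tests were exact and two-sided. P-values measure the spread between the tumours, whose independence rests on the labels.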

Additional observations from a re-analysis of the deposited data

Results flagged for a closer look

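Tgfb1 in shCtrl anti-PD1 tumour 2, at 140 normalised reads, stood far from the other 3 tumours of its group, which were at 59.3 to 69.0. The gap was 0.88 of the group's range. The rule tests the highest and lowest tumour in each group of 4, and chance alone marks about 5% of groups. That library also had the highest share of Gm42418 reads of the 16 (4.47%) and the fewest reads in all (5686405). The part of these in the value was not tested.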

How the results depend on the processing

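Skil on average over both antibodies kept its call whichever of the 16 tumours was left out, while the calls of Skil and Smad7 under anti-PD1 and of Smad7 on average did not. Smad7 under anti-PD1 had a log2 fold change of 1.01 with only the groups compared in the fit, 0.99 without the 2 libraries high in Gm42418 and 0.99 without the 5 whose GC slope was positive, none of which passed. On average over both antibodies Smad7 was at 0.67 without the 2 and 0.62 without the 5. Skil was at 0.72 under anti-PD1 and 0.56 on average without the 5. Over fits that left out a tumour Smad7 ranged from 0.84 to 1.15 under anti-PD1 and 0.59 to 0.77 on average, and Skil from 0.65 to 0.84 under anti-PD1. In these fits fewer samples entered.

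Direction turned only in differences that did not pass. Between lines under IgG2a, Tgfb2 was at 0.33 without the 5 libraries and Tgfbr2 at 0.0020 with the GC slope as a covariate. Under anti-PD1, Tgfb1 was at 0.26 and Tgfb2 at 0.0035 without the 2 libraries, and Tgfb3 at 0.0028 without the 5 and 0.11 with the covariate. Averaged over antibodies, Tgfb2 was at 0.10 without the 5. For anti-PD1 in shCtrl, Tgfb1 was at -0.23 without the 2. Without the 5, Tgfb2 was at 0.23, Tgfb3 at -0.10 and Tgfbr1 at -0.048, and with the covariate Tgfb2 was at 0.038 and Tgfb3 at -0.0059. For anti-PD1 in shMdk, Tgfb2 was at 0.0059 with the covariate and Tgfbr1 at 0.083 without the 2. For the difference of the antibody effects, Tgfb2 was at -0.47 and Tgfbr2 at 0.49 without the 5, and Tgfb2 at -0.032 with the covariate. Averaged over hairpins, Tgfb2 was at 0.022 with the covariate, and Tgfbr1 at -0.078 without the 5 and -0.087 with the covariate. The cause of these turns was not tested.

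Leaving out a tumour gave these ranges where a direction turned. Under IgG2a Tgfb2 was at -0.36 to 0.12 and Tgfbr2 at -0.31 to 0.12. Under anti-PD1 Tgfb1 was at -0.15 to 0.26, Tgfb2 at -0.29 to 0.11, Tgfb3 at -0.18 to 0.048 and Tgfbr1 at -0.055 to 0.20. Averaged over antibodies Tgfb2 was at -0.21 to 0.025. For anti-PD1 in shCtrl Tgfb1 was at -0.23 to 0.20 and Tgfb2 at -0.45 to 0.022, and in shMdk Tgfb2 was at -0.38 to 0.0063 and Tgfbr1 at -0.22 to 0.083. For the difference Tgfb2 was at -0.18 to 0.29 and Tgfbr2 at -0.29 to 0.14. Averaged over hairpins Smad7 was at -0.034 to 0.15.

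The counts of all genes called also moved. Under IgG2a the count was 449 in DESeq2, 74 without the 5 libraries and 397 with the covariate, and 136 to 363 over fits that left out a tumour. Under anti-PD1 it was 1310 in DESeq2 and 1384 with the covariate, and 443 to 912. Averaged over antibodies it was 745 without the 5 and 1868 with the covariate. For anti-PD1 in shCtrl it was 7 in DESeq2 and 3 without the 2, and 0 to 2. In shMdk it was 3 and 27 with pseudocounts of 0.5 and 5, 3 without a filter, 25 with only the groups compared, 0 without the variance trend, 8 in edgeR, 244 in DESeq2, 11 without the 2, 1 without the 5 and 40 with the covariate, and 0 to 36. Averaged over hairpins it was 12 without the trend, 11 in edgeR, 220 in DESeq2, 39 without the 2, 0 without the 5 and 13 with the covariate, and 4 to 38. By list, under anti-PD1 5 of 14 latency genes and 6 of 7 fibroblast genes passed in DESeq2, while 1 of 7 fibroblast genes and, on average over antibodies, 1 of 14 latency genes passed without the variance trend. Under IgG2a 3 of 13 macrophage genes passed without the trend, 9 in DESeq2 and 8 with the covariate. No paired analysis was possible because the tumour numbers were given in accession order and pair nothing. Tgfb3 and Smad7, with 10 to 60 and 18 to 97 reads per tumour, are limited most by counting error.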

Other observations

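Vessel and epithelial genes were also read beside the TGF-β genes. Of 7 blood endothelium genes 3 rose in shMdk tumours under anti-PD1, the receptor Tie1 (1.55 ± 0.32, limma adjusted p = 0.00720), the adhesion molecule Pecam1 (1.24 ± 0.35, 0.0431) and the cadherin Cdh5 (1.03 ± 0.30, 0.0495). Under IgG2a 0 of 7 passed. The shares of all genes called were 5.93% under anti-PD1 and 1.74% under IgG2a. Tie1 kept its call in every fit that left out a tumour, while that of Pecam1 was lost in 9 of 16 and that of Cdh5 in 12 of 16. Of 6 pericyte genes 0 passed, and of 7 pigment genes 0 passed in any comparison. Dsp, a desmosome gene of keratinocytes and the only one of 6 listed with a row in the table used, rose under anti-PD1 (2.51 ± 0.59, adjusted p = 0.0154). That call was lost without shMdk anti-PD1 tumour 2, which read 96.9 against 12.7 to 25.3 in the other 3 tumours of its group (adjusted p = 0.0602). Of the regulatory T cell genes, 1 could be tested and it did not pass in any comparison, and nor did the only skeletal muscle gene in the table used.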
